A study of Mus musculus with 2 samples.

Results

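The Rab GTPases were described here as a gene family. A gene was taken as a member when its symbol was Rab followed by a number and at most 1 lower-case letter, or by an l and a number as in Rabl6, so that effectors and exchange factors such as Rab11fip1 did not enter. The rule found 62 members among the 34714 genes of the deposited table. The RNA came from bone marrow-derived macrophages of C57BL/6 mice, a primary culture grown from marrow cells in medium with 20 ng/mL macrophage colony-stimulating factor. One culture received FGK45, an agonist antibody against CD40 (a receptor of the tumour necrosis factor family), and the other received IgG (labelled Ctrl), both for 24 h. Mutant alleles are not named for either, and how many mice gave the marrow is not given in the sources used here. Each condition is 1 library. Differences below therefore lack any replicate check and carry no p-value, and higher or lower refers to these 2 libraries.

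Rab proteins are small GTPases that give membranes their identity. Loaded with GTP by an exchange factor, a Rab sits on 1 kind of compartment through a prenyl anchor and recruits effectors that tether, move or fuse vesicles. A GTPase-activating protein then switches it off, and GDP dissociation inhibitor carries it back to the cytosol. In macrophages these steps order endocytosis, the maturation of phagosomes toward lysosomes, receptor recycling and the release of cytokines.

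Levels are given as FPKM, fragments scaled to transcript length and library size, a unit inferred for this table. All 8 macrophage markers examined, among them Csf1r, Cd68 and Adgre1, were at 1 FPKM or more, with summed levels of 15218 FPKM after anti-CD40 and 12921 after IgG. Most of both sums was Lyz2, at 13423 FPKM after anti-CD40 and 11326 after IgG. Csf1r was level at 333 FPKM in both libraries. Fcgr1 was lower, at 27.1 FPKM after anti-CD40 and 30.3 after IgG, and the other markers of this set were higher. Of markers of other cells, 1 of 6 for neutrophils, 1 of 4 each for T cells, dendritic cells and erythroid cells, 3 of 4 for megakaryocytes and 0 of 4 each for B cells, fibroblasts and mast cells or basophils reached that level. Cd3e, Cd3g, Cd8a, S100a9, Ly6g, Mpo, Ngp, Pax5, Flt3, Mcpt8 and Fcer1a were listed at 0 in both libraries. The megakaryocyte markers summed to 27.0 FPKM after anti-CD40 and 20.5 after IgG, the neutrophil markers to 1.87 after anti-CD40 and 1.11 after IgG, and the dendritic cell markers, among them Itgax, to 16.7 after anti-CD40 and 18.9 after IgG. Sums for T cells were 3.94 FPKM after anti-CD40 and 3.04 after IgG, and for erythroid cells 1.24 after anti-CD40 and 3.07 after IgG. Sums for B cells, fibroblasts and mast cells or basophils lay between 0.617 and 1.18 FPKM after anti-CD40 and between 0.267 and 0.845 after IgG. The part of such cells in the Rab values was not tested, and fewer cells of a type cannot be told apart here from less RNA per cell. Low values rise in steps that correspond to about 6.16 gigabases of aligned sequence for anti-CD40 and 5.58 for IgG.

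Most of the family was transcribed. At 1 FPKM or more stood 42 of the 62 members, all of them in both libraries, and 20 stood below. Beside them, 9591 of all 34714 genes reached that level in at least 1 library. The median member of those 42 had 14.3 FPKM after anti-CD40 and 13.2 after IgG, against a median of 7.41 after anti-CD40 and 6.69 after IgG over the 9591 genes that reached 1 FPKM in at least 1 library. At the estimated depth the members' median was about 388 fragments after anti-CD40, against 355 after IgG, and the lowest value rested on about 45. All 62 members together summed to 1122 FPKM after anti-CD40 and 1064 after IgG, a ratio of 1.05 that turns to 0.988 under upper-quartile scaling. The 10 members with the highest mean FPKM over both libraries held 64.4% of that sum after anti-CD40 and 67.0% after IgG. In order of that mean they were Rab7, Rab5c, Rab8a, Rab1b, Rab4b, Rab24, Rab2a, Rab7b, Rab31 and Rab14, which between them serve late endosomes, early endosomes, secretion, the path from endoplasmic reticulum to Golgi, and recycling.

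**Figure D1:**
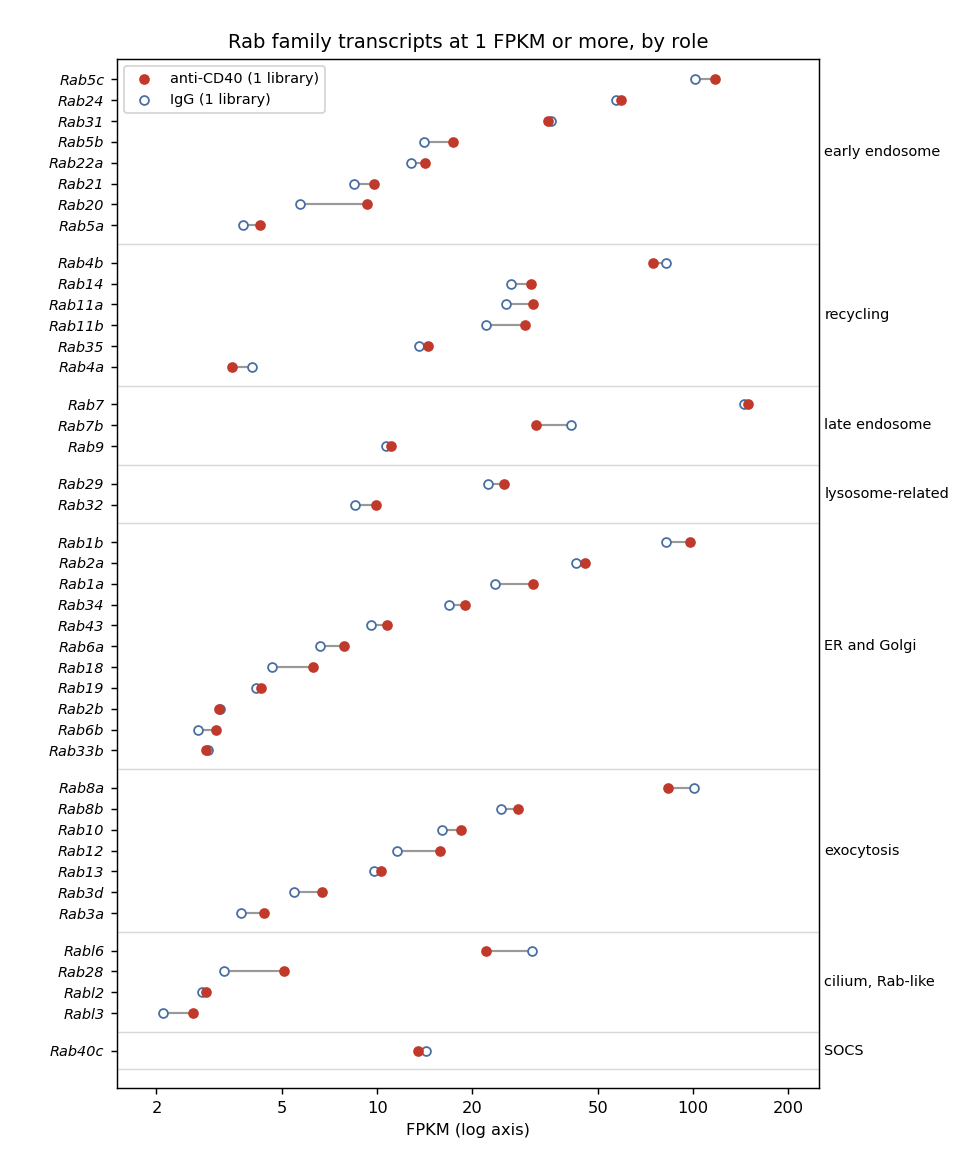
FPKM of the 42 Rab family members at 1 FPKM or more, on a log axis, grouped by the compartment with which each is usually associated; filled points are the anti-CD40 library and open points the IgG library. Rab7 is highest at 149 FPKM after anti-CD40 and 145 after IgG, and the longest connecting lines belong to Rab20 and Rab28, higher with anti-CD40, and to Rabl6, lower.

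The family as a whole lay close to the transcriptome. A gene's difference was measured on the log2(FPKM + 1) scale, as anti-CD40 minus IgG. Its median was 0.16 over the 42 members and 0.12 over all 9591 genes, whose distribution is thus shifted toward anti-CD40. The middle 50% of members lay between 0.04 and 0.23, and the middle 50% of all genes between -0.06 and 0.27. As deposited, 33 members were higher and 9 lower, but 25 lay above the median of the 9101 genes reaching 1 FPKM in both (0.12) and 17 below it. Upper-quartile scaling likewise gave 25 higher and 17 lower. Members are therefore described below relative to that median.

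At least 1.5-fold higher stood 1 member, Rab20, or 2.38% of the 42, beside 2.68% of all genes. At least 1.5-fold lower stood 0 members, beside 2.15% of all genes. Counted from the median instead, 0 members were 1.5-fold above, beside 1.27% of genes, and 1 member, Rabl6, was 1.5-fold below, beside 4.18%. At 2-fold, 0 members were higher or lower, beside 0.25% and 0.313% of genes. A smaller step was a ratio 25% above the median, or the same factor below it. By that 25% step 2 members stood above (Rab20 and Rab28), beside 7.62% of genes, and 3 stood below (Rabl6, Rab7b and Rab8a), beside 13.7%. Within that step lay the other 37 members, as did 78.7% of all genes. The counting interval of a member's ratio lay wholly above the median ratio of all genes for 6 members, wholly below it for 7, and included it for 29. The matching shares over all genes were not computed, so these counts are not read as a result about the family. The lower bound of 1 of the 6, Rab1b, falls at that median itself.

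**Figure D2:**
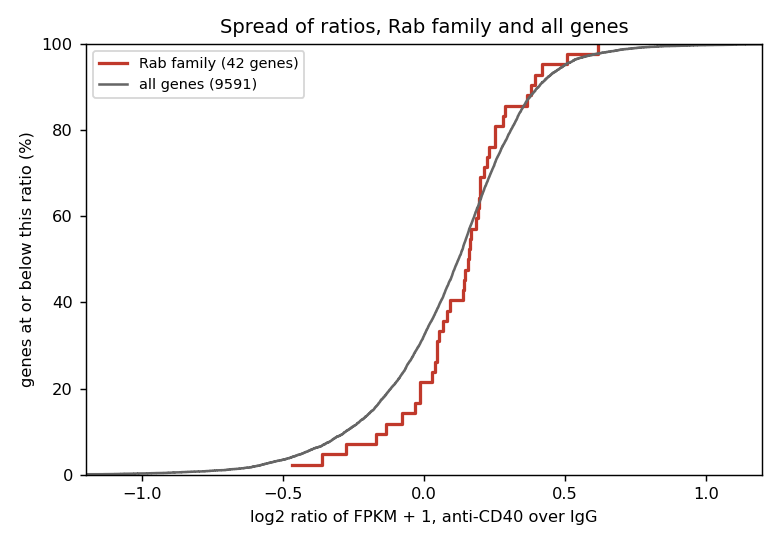
Cumulative share of genes (%) against the log2 ratio of FPKM + 1, anti-CD40 over IgG, for the 42 Rab family members and for all 9591 genes reaching 1 FPKM in at least 1 library. Both curves cross 50% slightly right of 0, at 0.16 and 0.12, and the family's curve ends at -0.47 and 0.62.

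Rab20 differed most among the members that were higher. It is a Rab of endosomes and phagosomes that acts in phagosome maturation in macrophages and is induced by interferon gamma. The gene lies on chromosome 8 (11453390 to 11478640, GRCm38, minus strand). Its transcript reached 9.26 FPKM after anti-CD40 and 5.69 after IgG. That is a ratio of 1.63, with a 95% interval from 1.33 to 2.01 that covers counting error only and rests on approximate fragment numbers. Relative to the all-gene median the log2 difference was 0.50, and it lay between 0.35 and 0.57 with pseudocounts of 0.1 and 5 FPKM and with trends on GC content and length removed. Rescaling the libraries moves all genes nearly alike, so it is no check of a difference from the median. In the GENCODE annotation 356 bases of its exons lie opposite an exon of E230013L22Rik, which had 0.459 FPKM after anti-CD40 and 0.341 after IgG. The strand setting of the counting is not given in the sources used here, so reads of the pair cannot be assigned there.

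Rab28, a farnesylated Rab known from cilia and from photoreceptor outer segments, was next. It lies on chromosome 5 (41624973 to 41708193, minus strand) and had 5.06 FPKM after anti-CD40 and 3.27 after IgG. The ratio was 1.55, with an interval from 1.21 to 2.01. Its log2 difference from the median was 0.39, and only with a pseudocount of 5 FPKM did it lie inside the 25% step, at 0.21. Rab12, a substrate of the kinase LRRK2 that directs transferrin receptor to lysosomes, stood just inside the 25% step at 0.30. Its levels were 15.7 FPKM after anti-CD40 and 11.5 after IgG.

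The members below the median by the 25% step were Rabl6, Rab7b and Rab8a. Rabl6, a large Rab-like GTPase linked to cell proliferation (chromosome 2, 25583017 to 25608481, minus strand), had 22.1 FPKM after anti-CD40 and 30.9 after IgG. Its ratio of 0.714 had an interval from 0.617 to 0.827. Rab7b is a second late endosomal Rab, described in macrophages as promoting the breakdown of Toll-like receptors. It lies on chromosome 1 (131688681 to 131715443, plus strand) and had 31.8 FPKM after anti-CD40 and 41.1 after IgG. The ratio was 0.773, with an interval from 0.675 to 0.887. Rab8a, which serves polarised exocytosis and primary cilia and acts in Toll-like receptor signalling of macrophages (chromosome 8, 72161200 to 72181366, plus strand), had 82.9 FPKM after anti-CD40 and 101 after IgG. Its ratio was 0.825, with an interval from 0.754 to 0.903. These 3 intervals lie below 1 as well as below 1.11, the median FPKM ratio of all genes. All 3 members were also below the median by that step with pseudocounts of 0.1 and 5 FPKM and with trends on GC content and length removed.

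**Figure D3:**
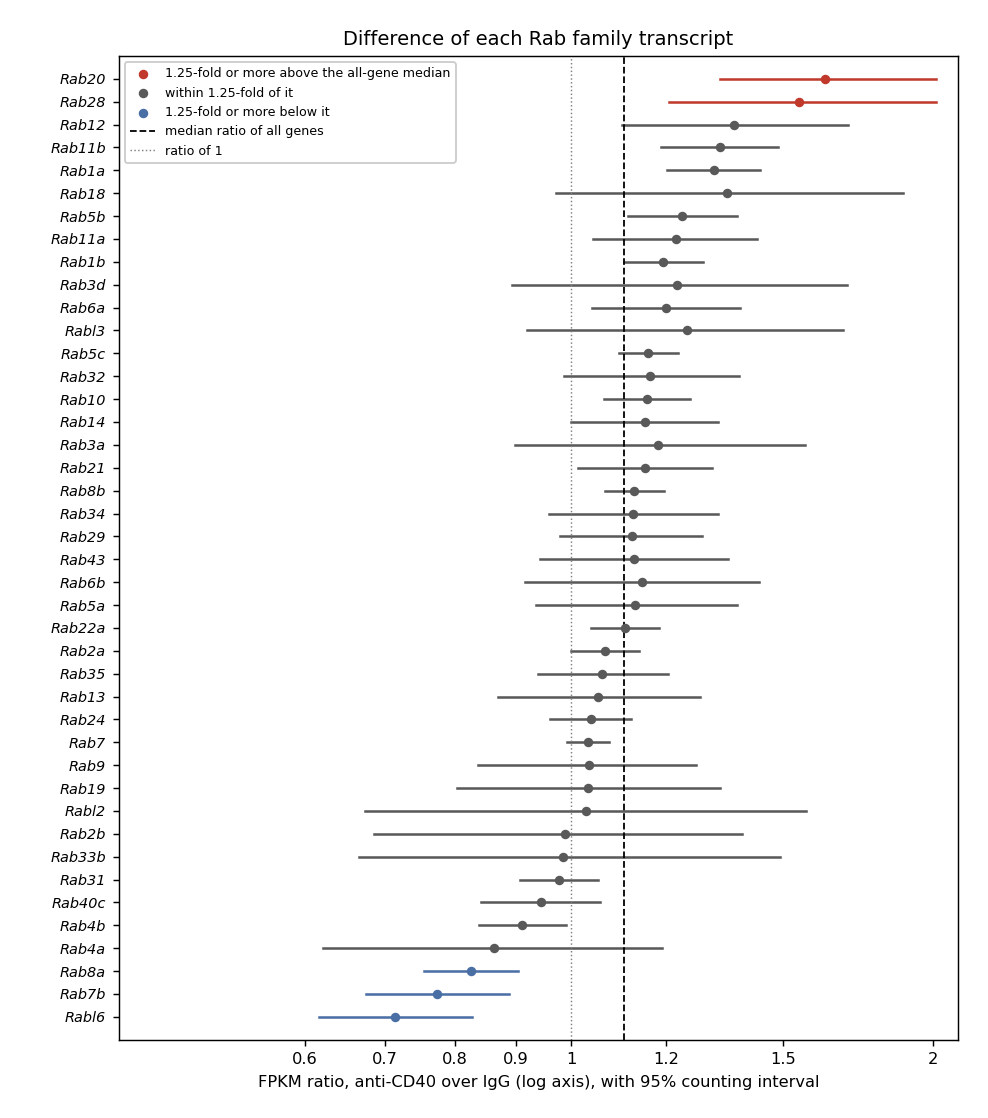
FPKM ratio of each of the 42 members, anti-CD40 over IgG, on a log axis, with 95% intervals for counting error; the dashed line is the median ratio of all genes, 1.11. Rab20 and Rab28 stand to the right and Rab8a, Rab7b and Rabl6 to the left, while 29 of the 42 intervals reach across the dashed line.

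The promoters of the members that stood apart were read from RefSeq on GRCm38.p6, as the 250 bases upstream of the annotated start. Of the 42 members 38 had such a window, and Rab7b had none. Shown are Rab20 and Rab28, which were higher with anti-CD40, and Rab8a, which was lower, each 5′ to 3′ on the gene's strand. For Rab20 the 70 bases nearest the start are left off, since GENCODE places its first exon there. The stretches lie at chr8:11478711-11478890 (minus), chr5:41708180-41708429 (minus) and chr8:72160950-72161199 (plus). Capitals mark matches within the printed stretches, on either strand, to an NF-kB site, an AP-1 site (TGANTCA), an E-box (CACGTG), a PU.1 site (GAGGAAGT) or a cyclic AMP response element (TGACGTCA).
Rab20: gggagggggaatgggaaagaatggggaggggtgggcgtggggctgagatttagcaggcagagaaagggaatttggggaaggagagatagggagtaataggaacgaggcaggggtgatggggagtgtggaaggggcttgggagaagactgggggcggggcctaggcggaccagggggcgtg
Rab28: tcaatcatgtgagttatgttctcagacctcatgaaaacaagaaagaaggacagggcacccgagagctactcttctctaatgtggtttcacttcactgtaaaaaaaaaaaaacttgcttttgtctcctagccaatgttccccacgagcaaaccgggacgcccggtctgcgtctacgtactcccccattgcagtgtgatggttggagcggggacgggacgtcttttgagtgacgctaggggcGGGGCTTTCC
Rab8a: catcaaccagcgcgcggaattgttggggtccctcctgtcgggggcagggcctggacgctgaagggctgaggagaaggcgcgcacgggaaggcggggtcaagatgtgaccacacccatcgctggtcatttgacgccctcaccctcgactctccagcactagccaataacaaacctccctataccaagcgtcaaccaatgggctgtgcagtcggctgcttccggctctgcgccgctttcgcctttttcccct
The whole Rab20 window holds 1 E-box, in the 70 bases not printed, a motif found in 6.02% of all 32841 windows of this length and in 3 of the 38 members (Rab5a, Rab20 and Rab21). In GENCODE 43 bases of that window also belong to E230013L22Rik on the other strand. The Rab28 window ends in a match to the NF-kB site, present in 3.90% of all windows and in no other of the 38 members. The last 14 bases of this window lie inside the span that RefSeq gives for the gene, so the match falls within an annotated transcript start region. The Rab8a window holds none of the marked motifs. Nor does that of Rabl6, which is not printed because exons of Ccdc183 cover 97 of its bases and an exon of Rabl6 covers 40. Elsewhere in the family the AP-1 letters occur in Rab34 alone, beside 6.75% of all windows. The PU.1 letters occur in Rab2b and Rab32, beside 2.44%, and the cyclic AMP letters in Rab5a, beside 1.55%. The GC box (GGGCGG, not marked) was in 29 of the 38 members and in 32.7% of all windows, and the median GC content of these 250 bases was 61.6% for the members and 52.4% overall. A member was counted when any of its windows matched, with 45 windows for the 38 members. The percentages instead count single windows of all genes, expressed or not, so the 2 are not like for like. The motifs were chosen after the values were seen, and a match is a run of letters, not a shown binding site.

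Early endosomal Rabs come first in the path of an internalised particle. Rab5 recruits the tethers and lipid kinases that make an early endosome, and of its forms Rab5c dominated with 117 FPKM after anti-CD40 and 101 after IgG. Rab5b had 17.4 FPKM after anti-CD40 and 14.03 after IgG, and Rab5a had 4.24 FPKM after anti-CD40 and 3.76 after IgG. All 3 lay above the all-gene median, but the intervals of Rab5a (0.934 to 1.37) and Rab5c (1.096 to 1.23) included the all-gene ratio of 1.106. That of Rab5b (1.115 to 1.37) lay just above it. Rab5 summed to 139 FPKM after anti-CD40 and 119 after IgG. Rab24, an unusual Rab linked to autophagosomes, had 59.2 FPKM after anti-CD40 and 57.1 after IgG. Its exons share 1258 bases with the opposite gene Prelid1, at 237 FPKM after anti-CD40 and 268 after IgG, so its own level is uncertain. Exons of other members overlap annotated genes too. The shared bases number 4164 for Rab43 and 1280 for Rab4b, both with a gene on the same strand, 305 on the same strand for Rab18, and on the opposite strand up to 2469 for Rab2b, 708 for Rab6a, 661 for Rab33b and 329 for Rab11b. Rab5a, Rab7, Rab10, Rab11a, Rab22a and Rab40c have shorter overlaps, and the levels of all these members carry the same caution. Rab31, which moves cargo between the trans-Golgi network and endosomes, was slightly lower with anti-CD40 at 34.6 FPKM, against 35.4 with IgG. Rab22a, a sorting endosome Rab, had 14.2 FPKM after anti-CD40 and 12.8 after IgG. Rab21, which carries integrins, had 9.76 FPKM after anti-CD40 and 8.47 after IgG. In this group 8 members reached 1 FPKM. Of these 6 lay above the all-gene median, 1 of them (Rab20) by the 25% step, and the group's median was 0.04 above it.

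Recycling Rabs return receptors to the surface, and in macrophages they also carry tumour necrosis factor on its way out. Rab11 and Rab4 lay on opposite sides of the all-gene median. The Rab11 forms, of the slow route, lay above it: Rab11a had 31.1 FPKM after anti-CD40 and 25.5 after IgG, and Rab11b had 29.4 FPKM after anti-CD40 and 22.1 after IgG. The Rab11b ratio of 1.33 had an interval from 1.19 to 1.49, and its log2 difference from the median, 0.28, became 0.33 and passed the 25% step once trends on GC content and length were removed. The Rab4 forms, of the fast route, lay below it: Rab4b had 74.5 FPKM after anti-CD40 and 81.8 after IgG, and Rab4a had 3.47 FPKM after anti-CD40 and 4.02 after IgG. The intervals of Rab11a (1.04 to 1.43) and Rab4a (0.622 to 1.19) included the all-gene ratio of 1.11. That of Rab4b (0.838 to 0.989) lay below it. Without removal of those trends, neither pair reached the 25% step with the pseudocount of 1 FPKM, and Rab4a passed it downward with a pseudocount of 0.1 FPKM. Rab14, which links recycling to the Golgi, had 30.6 FPKM after anti-CD40 and 26.6 after IgG. Rab35, which acts in recycling at the plasma membrane, had 14.4 FPKM after anti-CD40 and 13.6 after IgG.

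Late endosomal Rabs were led by Rab7, the Rab that directs endosomes and phagosomes to lysosomes and the most abundant member of all. It had 149 FPKM after anti-CD40 and 145 after IgG, a ratio of 1.03 whose interval from 0.992 to 1.08 lies below the all-gene ratio of 1.11. Rab9, which returns mannose 6-phosphate receptors to the Golgi, had 11.03 FPKM after anti-CD40 and 10.7 after IgG. With Rab7b, all 3 members of this group at 1 FPKM or more lay below the all-gene median. The Rab9 interval, 0.836 to 1.27, included the all-gene ratio. Rab20 and Rab32, which also act in phagosomes, were placed in other groups and lay above the median, so the pattern depends on the grouping. The group's summed level was 192 FPKM after anti-CD40 and 196 after IgG. Rabs of lysosome-related organelles lay slightly above the median, but the intervals of Rab29 (0.979 to 1.29) and Rab32 (0.986 to 1.38) included the all-gene ratio. Rab29, which recruits LRRK2 to membranes, had 25.2 FPKM after anti-CD40 and 22.4 after IgG. Rab32, which acts in phagosomes and in defence against Salmonella, had 9.92 FPKM after anti-CD40 and 8.53 after IgG.

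Rabs of the endoplasmic reticulum and Golgi numbered 11 at 1 FPKM or more, of which 7 lay above the median and 0 were past the 25% step. Rab1, which carries vesicles from the endoplasmic reticulum to the Golgi, was mostly Rab1b, at 97.9 FPKM after anti-CD40 and 82.1 after IgG. Rab1a had 31.0 FPKM after anti-CD40 and 23.6 after IgG, a ratio of 1.31 with an interval from 1.202 to 1.44 that lies above the all-gene ratio. Rab18, found at lipid droplets and the endoplasmic reticulum, had 6.25 FPKM after anti-CD40 and 4.64 after IgG, but its interval reached from 0.971 to 1.89. Rab2a, also of this first step, had 45.4 FPKM after anti-CD40 and 42.5 after IgG, and its paralog Rab2b had 3.15 FPKM after anti-CD40 and 3.19 after IgG. Rab34, which positions lysosomes, had 18.9 FPKM after anti-CD40 and 16.8 after IgG. Rab43 had 10.7 FPKM after anti-CD40 and 9.54 after IgG. For transport within the Golgi, Rab6a had 7.86 FPKM after anti-CD40 and 6.56 after IgG, and Rab6b had 3.09 FPKM after anti-CD40 and 2.70 after IgG. Rab19 had 4.28 FPKM after anti-CD40 and 4.14 after IgG, and Rab33b, a partner of the autophagy protein ATG16L1, had 2.86 FPKM after anti-CD40 and 2.91 after IgG. This was the group with the highest ratio of summed levels, 1.17, at 232 FPKM after anti-CD40 and 199 after IgG.

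Of the 7 secretory Rabs at 1 FPKM or more, 5 lay above the all-gene median, and Rab8a and Rab13 lay below it. Rab8b had 27.8 FPKM after anti-CD40 and 24.6 after IgG, and Rab10, which delivers Toll-like receptor 4 to the macrophage surface, had 18.5 FPKM after anti-CD40 and 16.0 after IgG. Rab13, known from tight junctions, had 10.3 FPKM after anti-CD40 and 9.78 after IgG. Rab3d and Rab3a are Rabs of secretory granules. Rab3d had 6.67 FPKM after anti-CD40 and 5.45 after IgG, and Rab3a had 4.38 FPKM after anti-CD40 and 3.71 after IgG. Exons of Rab3a share 29 bases with the opposite gene Mpv17l2, at 57.7 FPKM after anti-CD40 and 93.6 after IgG. The summed level of the 14 genes of this group was 167 FPKM after anti-CD40 and 172 after IgG, while the median over its 7 members lay 0.07 above the all-gene median. Among the remaining members, Rab40c, which joins a Rab fold to a SOCS box for ubiquitin ligases, had 13.5 FPKM after anti-CD40 and 14.3 after IgG. Rabl2 had 2.86 FPKM after anti-CD40 and 2.78 after IgG, and Rabl3 had 2.61 FPKM after anti-CD40 and 2.09 after IgG.

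Most paralogs with the same number had like proportions in both libraries. Across 9 numbers with more than 1 member at 1 FPKM or more, the share of each form of its number's summed FPKM was compared between libraries. Rab5c held 84.4% of Rab5 after anti-CD40 and 85.0% after IgG, Rab4b held 95.6% of Rab4 after anti-CD40 and 95.3% after IgG, and Rab2a held 93.5% of Rab2 after anti-CD40 and 93.0% after IgG. Rab8 and Rab7 departed from this between these libraries. They hold Rab8a and Rab7b, already picked out above as below the all-gene median. Their shares and quotients largely restate those values and are not a second result. Rab8b made up 25.1% of Rab8 after anti-CD40 and 19.7% after IgG. Its ratio between libraries was 1.37 times that of Rab8a, with a 95% counting interval from 1.23 to 1.52. Rab7b made up 17.5% of Rab7 after anti-CD40 and 22.1% after IgG. The ratio of Rab7 was 1.34 times that of Rab7b, with an interval from 1.16 to 1.54. The ratios of the other 9 pairs compared differed by 1.03 to 1.10 times, and each of their intervals included 1. Such a quotient of ratios does not depend on how the libraries are scaled.

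**Figure D4:**
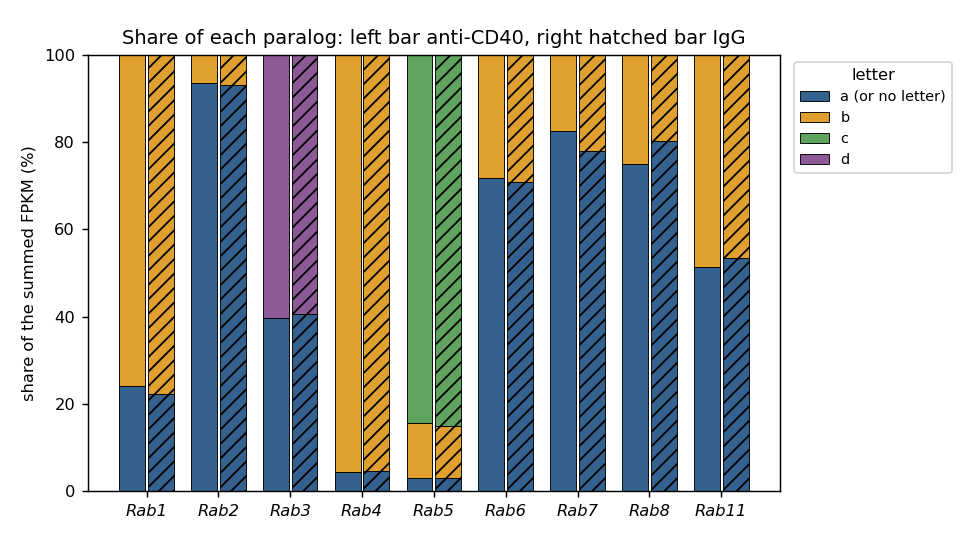
Share (%) of each paralog in the summed FPKM of its Rab number, with the anti-CD40 library as the left bar and the IgG library as the right, hatched bar; colours give the letter of the gene symbol. The bars of a pair are nearly alike except for Rab7, where the b form has 17.5% after anti-CD40 and 22.1% after IgG, and Rab8, where it has 25.1% after anti-CD40 and 19.7% after IgG.

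The Rab7 and Rab8 pairs are not the most similar ones. Over the translated GENCODE coding sequences, Rab1a and Rab1b were 92.5% identical, Rab6a and Rab6b 90.9%, Rab11a and Rab11b 90.7%, and Rab8a and Rab8b 83.6%. Rab7 and Rab7b shared 48.7%, the lowest value of the 11 pairs compared. Reads of close paralogs could be split between them in counting. This was not tested, and the identities are of proteins, not of transcripts. For the remaining members that stood apart, the closest member by protein identity was Rab10 for Rab20 at 35.5%, Rab17 for Rab28 at 33.6%, and Rab11b for Rabl6 at 29.4%.

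The proteins themselves vary at the tail that carries the prenyl anchor. Of the 62 translated sequences, 15 ended in 2 adjacent cysteines, 20 had cysteines at the last and the third position from the end, and 15 had 2 adjacent cysteines followed by 1 to 3 other residues. A single cysteine at the fourth position from the end, the form of farnesylated and many geranylgeranylated proteins, was found in 9. Rabl2 and Rabl6 had none in the last 5 residues. At 1 FPKM or more, the counts lying above the all-gene median were 7 of 13, 6 of 11 and 8 of 9 for the first 3 forms in turn, and 3 of 6 for the single cysteine. The 9 with cysteines before the end include Rab5a, Rab5b, Rab5c, Rab11a, Rab11b, Rab20 and Rab21, several of them paralogs. A match to the usual letters of the phosphate-binding loop of GTPases (GxxxxGK, then S or T) was found in 60 of 62. Rab40b and Rab40c did not match these letters, which does not show that they lack the loop. The usual letters of the second switch region were in 50 of the 62, and in 33 of the 42 at 1 FPKM or more. They were missing from 4 of the 5 members past the 25% step, Rab8a being the one that has them. They were also missing from Rab24, Rab29, Rab32, Rab40c and Rabl3, which lay inside that step. Whether the letters go with the ratio was not tested.

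Of the 20 members below 1 FPKM, 7 were secretory Rabs, 4 were Rabs of the endoplasmic reticulum and Golgi, and the others were spread over the remaining groups. Rab27a, which drives granule release, had 0.503 FPKM after anti-CD40 and 0.290 after IgG. Rab23, a regulator of hedgehog signalling, had 0.464 FPKM after anti-CD40 and 0.462 after IgG. Rab25, an epithelial relative of Rab11, had 0.160 FPKM after anti-CD40 and 0.221 after IgG. Rab3c, Rab9b, Rab15 and Rab17 were listed at 0 in both libraries. Rab3b, Rab30, Rab38, Rab39b and Rab40b were listed at 0 with IgG alone, and Rab26 and Rab44 with anti-CD40 alone. Of the 9 members of this set above 0 in both libraries, 7 had the higher value with anti-CD40, among them Rab33a, Rab36, Rab37, Rab39 and Rab42. The remaining one with the lower value, beside Rab25, was Rab27b. No difference was read from levels this low.

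The machinery that acts on Rabs was compared as 4 lists, which share no gene with the family. Of the factors that anchor and extract Rabs, 7 of 9 were at 1 FPKM or more in at least 1 library. Of these, 0 stood above the all-gene median by the 25% step and 1 below it. That gene was Rabac1, a Golgi protein that binds prenylated Rabs, at 574 FPKM after anti-CD40 and 685 after IgG, with an interval on its ratio of 0.838 from 0.811 to 0.866. Rabggtb, the catalytic subunit of the Rab geranylgeranyl transferase, had 11.01 FPKM after anti-CD40 and 7.96 after IgG, while its partner Rabggta had 15.2 FPKM after anti-CD40 and 13.7 after IgG. Rabif, a chaperone of nucleotide-free Rabs, had 6.00 FPKM after anti-CD40 and 5.19 after IgG. The dissociation inhibitor Gdi2 had 124 FPKM after anti-CD40 and 118 after IgG.

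Exchange factors had 29 of 34 genes at that level, with 1 gene above by the 25% step and 6 below, and a median 0.04 above the all-gene median. Mon1a, a subunit of the complex that loads Rab7, had 9.99 FPKM after anti-CD40 and 14.6 after IgG, a ratio of 0.685 with an interval from 0.609 to 0.771. Dennd1a and Dennd1c are exchange factors for Rab35. Dennd1a had 20.1 FPKM after anti-CD40 and 26.6 after IgG, and Dennd1c had 40.1 FPKM after anti-CD40 and 49.6 after IgG. Rgp1, part of the factor for Rab6, was the gene above, at 5.16 FPKM after anti-CD40 and 3.51 after IgG, but its interval reached from 0.954 to 2.24. Dennd2d, low in both libraries, had 1.16 FPKM after anti-CD40 and 0.607 after IgG, and Dennd2a had 2.59 FPKM after anti-CD40 and 1.72 after IgG.

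GTPase-activating proteins had 29 of 36 genes at that level, with 2 above by the 25% step and 6 below, and a median 0.01 below the all-gene median. Rabgap1 had the largest difference, at 2.24 FPKM after anti-CD40 and 0.860 after IgG, a ratio of 2.61 with an interval from 1.73 to 4.09. It was low in both libraries and entered the list only through its anti-CD40 value, with about 31 fragments after IgG. It was the one gene of the 4 lists at least 1.5-fold higher on the log2(FPKM + 1) scale. Tbc1d7 had 4.39 FPKM after anti-CD40 and 2.73 after IgG, and Tbc1d10b had 36.6 FPKM after anti-CD40 and 27.7 after IgG. At the other end, Tbc1d17 had 53.0 FPKM after anti-CD40 and 77.7 after IgG. Its ratio of 0.683 had an interval from 0.616 to 0.756. Tbc1d5, which acts on Rab7 and the retromer, had 5.67 FPKM after anti-CD40 and 7.54 after IgG, and Sgsm2 had 3.20 FPKM after anti-CD40 and 4.55 after IgG.

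Effectors had 32 of 48 genes at that level, with 2 above by the 25% step and 1 below, and a median 0.01 above the all-gene median. Acap2, a Rab35 effector, had 3.45 FPKM after anti-CD40 and 2.19 after IgG. Uso1, the Golgi tether p115 that Rab1 recruits, had 10.3 FPKM after anti-CD40 and 7.24 after IgG, a ratio of 1.43 with an interval from 1.27 to 1.60. The exocyst subunit Exoc6 had 4.13 FPKM after anti-CD40 and 3.10 after IgG. Rufy3 was the gene below, at 12.1 FPKM after anti-CD40 and 16.6 after IgG. Rab11fip5 had 25.8 FPKM after anti-CD40 and 29.5 after IgG, and Rufy1 had 27.5 FPKM after anti-CD40 and 30.8 after IgG. The shares of all genes beyond this step, given with the family's counts, were 7.62% above and 13.7% below.

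**Figure D5:**
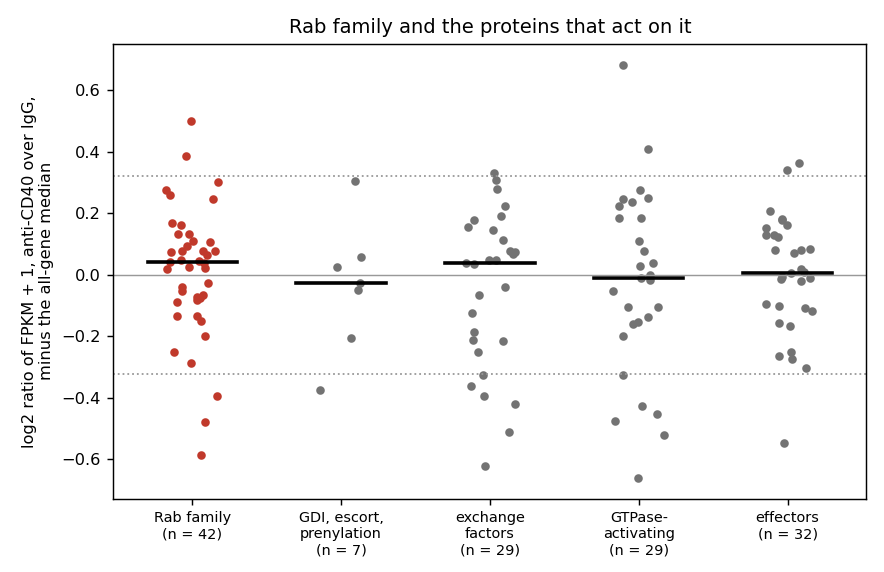
Log2 ratio of FPKM + 1, anti-CD40 over IgG, minus the all-gene median, for the Rab family and for the 4 lists of proteins that act on it. Each point is a gene at 1 FPKM or more in at least 1 library, horizontal bars are list medians and dotted lines mark the 25% step. The medians lie between -0.03 and 0.04, and the highest point is Rabgap1, which was below 1 FPKM after IgG.

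Transcript base composition moved weakly with the ratio. Across the 42 members the Spearman correlation between GC content and log2 ratio was -0.22, and it was -0.19 across 9321 genes with a GENCODE transcript. These are correlations across genes of the same 2 libraries, and genes are not independent replicates. Median transcript GC content was 45.2% for Rab28 and 56.1% for Rab20, both higher with anti-CD40, and 54.7% for Rabl6, 50% for Rab8a and 49.1% for Rab7b. With trends on GC content and length removed, an alternative chosen after seeing the data, these 5 members stayed past the 25% step and Rab11b joined them.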

How the data were processed

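Each library was made with a TruSeq RNA kit from 1.3 ug of TRIzol-purified RNA, per the labels' protocols. HISAT2 2.1.0, StringTie and the build mm10 are named in the submitters' processing notes; the strand setting and annotation are not stated there. The table that the authors deposited was read as FPKM, a unit inferred from StringTie and from totals of 529104 for anti-CD40 and 547362 for IgG.

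Members, lists and thresholds were chosen with earlier results of these data known. Differences are log2 ratios with a pseudocount of 1 FPKM over genes reaching 1 FPKM in at least 1 library. In genes with 1 transcript and exon, 75.0% of 64 low values (anti-CD40) and 85.7% of 35 (IgG) were whole multiples, within 0.05, of a step taken as 0.5 of an aligned base, a reading that sets the absolute depth. With 300 bases per fragment this gave 20.5 (anti-CD40) and 18.6 (IgG) fragments per FPKM and kilobase of median GENCODE transcript (mouse release 21). Intervals are 95% exact conditional binomial ones, and for quotients of ratios a normal approximation on the log scale with the same fragment numbers. Counts and intervals were tested on simulated data. Proteins were translated from GENCODE coding sequences and aligned with Biopython 1.88. A GC and length correction was added after seeing the data; other alternatives were pseudocounts, scalings and filters. Every member was a named gene, and of each other list up to 3 genes at either end, apart from genes not reported here. Software was Python 3.11.15, numpy 2.4.6, pandas 2.3.3, scipy 1.17.1, statsmodels 0.14.6 and matplotlib 3.10.9.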

Additional observations from a re-analysis of the deposited data

How the results depend on the processing

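No paired analysis was possible because each group held 1 library and the groups were not compared by a test. The 1 member at least 1.5-fold higher became 2 (with Rab28) with a pseudocount of 0.1 FPKM and 2 after rescaling to equal sums at the TPM scale. It became 0 with a pseudocount of 5 FPKM, after centring on the all-gene median, after upper-quartile scaling, and without close paralogs and overlapping genes, a setting that leaves Rab20 out. The 0 members lower became 1 (Rabl6) after centring. The count above the median by the 25% step fell to 1 with a pseudocount of 5 FPKM and to 1 without close paralogs and overlapping genes, and it was 3 (with Rab11b) with trends on GC content and length removed. The count below, 3, was 4 (with Rab4a) with a pseudocount of 0.1 FPKM. The members' median of 0.16 was 0.17 and 0.11 with pseudocounts of 0.1 and 5 FPKM, 0.040 after centring, 0.20 and 0.21 after rescaling to the mean of the sums and to the TPM scale, 0.073 after upper-quartile scaling, 0.074 without a filter, 0.17 with a filter at 5 FPKM and 0.14 with trends on GC content and length removed. The ratio of summed levels, 1.05, was 1.09 after rescaling to the mean of the sums or to the TPM scale, 0.988 after upper-quartile scaling, 1.02 without close paralogs and overlapping genes and 1.06 without Rab7. With the longest transcript as length, the intervals of the 5 members that stood apart were as wide or narrower, for example 0.800 to 0.851 for Rab8a. A greater length can only raise the estimated fragment numbers, so this outcome was fixed in advance and is no check of the differences. With 1 library per group, no difference given here, whatever its size, can be told apart from variation between cultures.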
